A study of Homo sapiens with 2 samples.

Results

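The regions described here are LACE-seq peaks of IGF2BP3 that covered a start codon. A peak was taken when its interval held the whole start codon of the Ensembl canonical transcript of a protein-coding gene in GENCODE 44 on hg38, and did not hold the canonical stop codon of the same gene. There were 1677 such peaks among 21142 in replicate 1 (7.93%, Wilson 95% interval 7.58 to 8.30) and 2599 among 20799 in replicate 2 (12.5%, 12.1 to 13.0). Over the replicates the share averaged 10.2% ± 3.23 (SD, n = 2). All intervals given here are Wilson 95% intervals and cover counting error only.

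The data came from OE-19, an established human cell line that was derived from a tumour of the esophagogastric junction. The cells were crosslinked with UV light, IGF2BP3 was immunoprecipitated with an antibody, and the ends of the cDNA made from the bound RNA were amplified linearly and sequenced, which gives the assay its name. The 2 samples formed 1 group, both without knockdown or other treatment, and neither an input nor an IgG control was used here, so nothing below is a difference between conditions. The study treats the samples as biological replicates, but the labels do not say whether they were separate cultures, and the tests below compare these lists only.

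Translation of most mRNAs begins when the small ribosomal subunit, loaded near the cap, scans the 5′ untranslated region (5′ UTR) and stops at a start codon, usually AUG, in a favourable context with a purine shortly before it and a G right after it. IGF2BP3 belongs to a family of oncofetal RNA-binding proteins with RRM and KH domains that is known for keeping bound mRNAs stable, and it is known to recognise transcripts that carry N6-methyladenosine (m6A). Its best studied sites lie around stop codons and in 3′ UTRs, so peaks at the other end of the reading frame were examined in their own right.

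The sequences around the start codons with the largest fold enrichment show what these peaks covered. Each line gives 30 nt of the spliced canonical transcript from the hg38 reference, 5′ to 3′, with the start codon in capitals, 12 nt before it and 15 nt after it. The genes were chosen by the rule given with the processing, leaving out TRAM1 and DERL1, for which no sequence is shown, and PARP2, whose annotated 5′ UTR has only 7 nt.
PERP (chr6:138107323-138107352, minus strand): ccgcccgtcaacATGatccgctgcggcctg
NUFIP2 (chr17:29294042-29294071, minus strand): cagccgctttcaATGgaggagaagcccggc
RPN1 (chr3:128650783-128650812, minus strand): ctcttcccggtcATGgaggcgccagccgcc
YWHAQ (chr2:9630435-9630464, minus strand): cccgcgcccgccATGgagaagactgagctg
CD164 (chr6:109382361-109382390, minus strand): gctgaggacacgATGtcgcggctctcccgc
TMED10 (chr14:75176562-75176591, minus strand): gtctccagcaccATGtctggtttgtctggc
CHP1 (chr15:41231371-41231400, plus strand): cccggcacggcgATGggttctcgggcctcc
CCND1, covered in both replicates, and CDK4, covered in replicate 1 only, are shown beside them as cell cycle genes.
CCND1 (chr11:69641302-69641331, plus strand): agagccccagccATGgaacaccagctcctg
CDK4 (chr12:57751700-57751729, minus strand): cttgatctgagaATGgctacctctcgatat
A small number of canonical start codons do not read ATG. The 5 of them that were covered in both replicates are shown because the codon itself differs, and they were chosen after their values were seen.
VEGFA (chr6:43770695-43770724, plus strand): tgaccagtcgcgCTGacggacagacagaca
DDX17 (chr22:38506220-38506249, minus strand): gcgtagccaaacCTGcccaccggctttgta
GTF3A (chr13:27424726-27424755, plus strand): ggcgccggcgccCTGgatccgccggccgtg
MRTFA (chr22:40552329-40552358, minus strand): acgaaagccaaaGTGgatttctccagtgtg
WDR26 (chr1:224434388-224434417, minus strand): cggcttcccaccACGgcctctctcggcgag

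The annotation held 19856 canonical start codons of protein-coding genes. Peaks covered 1730 of them in replicate 1 (8.71%) and 2675 in replicate 2 (13.5%), a few more than the number of peaks because 52 and 76 peaks covered the start codons of more than 1 gene. Of these, 10 and 13 peaks covered start codons on both strands. The files give no strand for any peak, so a peak was read on the strand of its gene, and for such peaks the gene cannot be told.

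In both replicates 1246 start codons were covered (6.28% of all). A further 484 were covered in replicate 1 only and 1429 in replicate 2 only, which made 3159 in either. Among the 6027 genes with a peak anywhere in the exons of their canonical transcript in both replicates, the start codon was covered in both in 20.7%. The start-codon peak itself counts as such a peak, so every gene covered in both is in this group. These 4 percentages are the background against which the counts of gene groups below are to be read. Replicate 2 had the larger share of its peaks at start codons, by a ratio of 1.58 (two-sided Fisher's exact test of the lists, Benjamini-Hochberg adjusted p = 7.21e-54).

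The cell line was checked by its markers. Peaks lay in exons of each of the epithelial genes EPCAM, CDH1, KRT8, KRT18 and KRT19 and of ERBB2, which is amplified in this line, in both replicates, while PTPRC, CD3E, PECAM1 and ALB had none and COL1A1 had 1 peak in replicate 2. The number of sequenced reads is unknown, but the deposited fold enrichment and p-value together fix how many reads were piled up at a summit. At start codons this pileup had a median of 19 reads in replicate 1, with a range of 5 to 257, and a median of 21 in replicate 2, with a range of 5 to 259.

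Start-codon peaks extended further into the 5′ UTR side than into the coding side. The median reach upstream of the start codon was 244 nt in replicate 1 and 267 nt in replicate 2, against 121 and 118 nt downstream. The summit, the position with most reads, lay upstream of the start codon in 1142 of 1677 peaks of replicate 1 (68.1%, 65.8 to 70.3) and in 1883 of 2599 of replicate 2 (72.5%, 70.7 to 74.1), a mean of 70.3% ± 3.08 (SD, n = 2). Its median position was 58 and 73 nt upstream, and the quartiles ran from 131 nt upstream to 24 nt downstream in replicate 1 and from 143 nt upstream to 10 nt downstream in replicate 2.

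**Figure D1:**
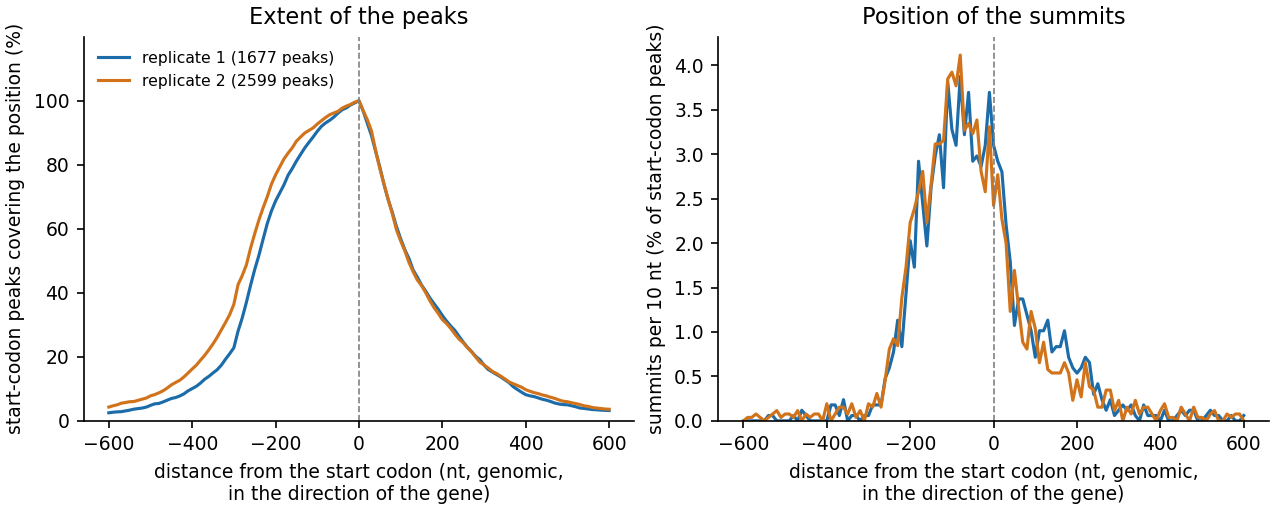
Left, the percentage of start-codon peaks that cover each genomic position around the start codon, in the direction of the gene, which is 100% at 0 by the way the peaks were chosen. Right, the percentage of summits per 10 nt. Blue is replicate 1 (1677 peaks) and orange replicate 2 (2599 peaks). In both, the peaks reach further upstream than downstream, and the median summit lies 58 or 73 nt upstream.

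Many of these peaks reached beyond the annotated mRNA. The interval began upstream of the annotated transcript start in 50.9% of the peaks of replicate 1 and 68.7% of those of replicate 2, and the summit itself lay upstream of it in 18.2% and 22.3%. By contrast 6.62% and 9.47% ran past the 3′ end of the exon that holds the start codon. The summit lay in that exon in a mean of 67.9% of peaks, so a summit upstream of the start codon is not always in the 5′ UTR. A displacement of the same sense was seen away from start codons. For peaks under 400 bp wide on internal exons of 80 to 200 nt, the middle of the peak lay a median of 125 and 121 nt upstream of the middle of the exon for plus-strand genes, and 130 and 127 nt upstream for minus-strand genes. It was upstream in 88.7% and 88.4% of these peaks on the plus strand and 92.1% and 90.5% on the minus strand.

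The place of the summit relative to the start codon changed when positions were read differently. When every interval and summit was moved downstream along its gene by 146 or 147 nt, which takes the first base of the shortest interval to its centre, the summit lay upstream of the start codon in 36.8% and 39.5% of the peaks that then covered one. The members were less affected, since 1346 of the 1677 peaks of replicate 1 and 2270 of the 2599 of replicate 2 still covered a start codon. The cause of the displacement was not tested.

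Start-codon peaks had the larger median fold enrichment in both replicates, which is given as a description with no test. Fold enrichment is the deposited ratio of reads at the summit to the local background. Its median at start codons was 8.04 in replicate 1 and 8.60 in replicate 2, a mean of 8.32 ± 0.398 (SD, n = 2). It was 6.96 and 7.02 at stop codons, 7.09 and 7.08 in coding sequence with neither codon, and 6.89 and 7.13 over all peaks. The pileup had another order, with medians of 19 and 21 reads at start codons, 35 and 36 at stop codons and 21 and 21 in internal coding sequence. Start-codon peaks were thus high against their background but not deep.

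Their width was between that of the other classes, with medians of 358 and 406 bp at start codons, 535 and 521 bp at stop codons and 316 and 318 bp in internal coding sequence. Their sequence was richer in G and C. The median GC content was 64.5% and 68.7% at start codons, 50.8% and 56.1% at stop codons, and 48.8% and 55.2% over all peaks. Replicate 2 was higher in GC than replicate 1 in each of these classes. The summit 31-mer, a run of 31 bases, occurred a single time in the genome for 96.5% and 97.3% of start-codon peaks, against 90.6% and 91.7% of all peaks.

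The start-codon peak was also ranked among the exonic peaks of its gene. Where the start codon was covered, 1405 genes of replicate 1 and 1959 of replicate 2 had at least 2 exonic peaks, with a median of 3. The start-codon peak had the largest fold of them in 697 genes (49.6%, 47.0 to 52.2) and 1144 genes (58.4%, 56.2 to 60.6). Ranked in the same way over genes with a covered stop codon and also a median of 3 exonic peaks, a stop-codon peak had the largest fold in 714 of 1981 genes (36.04%, 33.96 to 38.2) and 617 of 1902 (32.4%, 30.4 to 34.6). In 325 and 716 genes the start-codon peak was the only exonic peak. The stop codon was also covered in 40.3% and 34.2% of genes with a covered start codon, and in 37.7% and 33.1% of genes with exonic peaks but an uncovered start codon. These groups are not alike. Genes with an uncovered start codon have a peak elsewhere by definition, whereas the 325 and 716 genes with no other exonic peak cannot have a covered stop codon. The shares are therefore a description only, and their difference was not tested.

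The overlap of start-codon peaks between the lists was unequal. In replicate 1, 1339 of 1677 (79.8%, 77.9 to 81.7) shared at least 1 bp with a peak of replicate 2. In replicate 2, 1474 of 2599 (56.7%, 54.8 to 58.6) shared at least 1 bp with a peak of replicate 1. The shares for stop-codon peaks were 76.4% and 81.4%, and for internal coding peaks 55.8% and 59.0%.

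Start-codon peaks overlapped more often than stop-codon peaks in replicate 1, by 3.43 percentage points (adjusted p = 0.0108 by Fisher's exact test), and less often in replicate 2, at 56.7% against 81.4% (adjusted p = 2.61e-80 by the same test). Against internal coding peaks they overlapped more often in replicate 1, by 24.1 points (Fisher's exact test, adjusted p = 1.40e-80), and slightly less often in replicate 2, at 56.7% against 59.0% (adjusted p = 0.0421). As the replicates differed in direction, neither difference was called. Both shares count largely the same shared peaks, over 1677 start-codon peaks in replicate 1 and 2599 in replicate 2. A larger number of peaks by itself lowers such a share, so the opposite signs are not independent of these counts. The p-values were adjusted over 5 tests and treat peaks as independent.

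**Figure D2:**
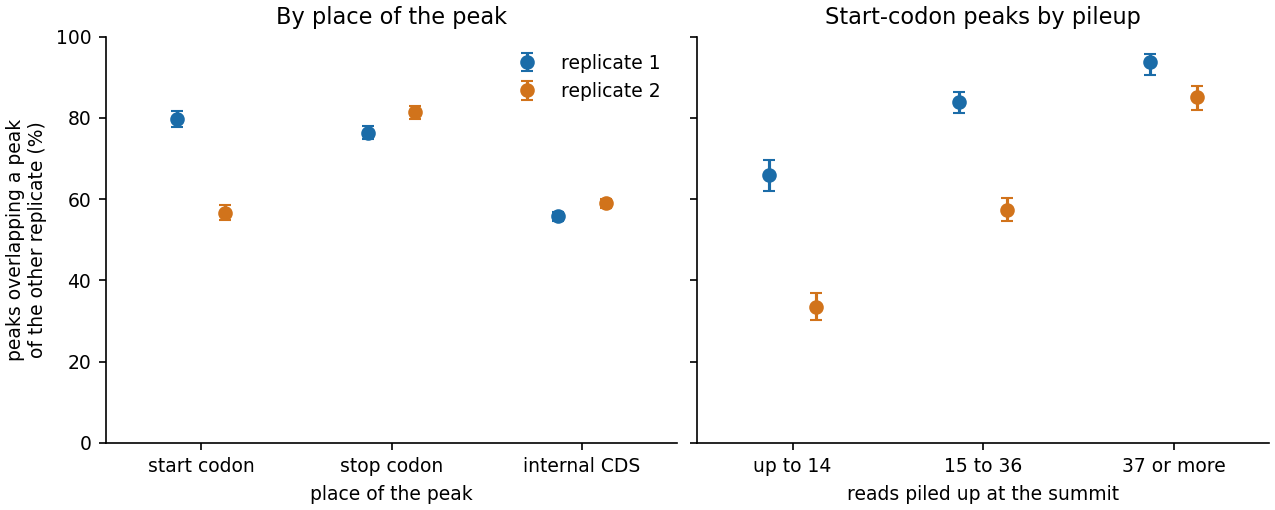
Percentage of peaks that overlap a peak of the other replicate by at least 1 bp, by the place of the peak (left) and, for start-codon peaks, by the reads at the summit (right). Blue is replicate 1 and orange replicate 2, and bars are Wilson 95% intervals. The replicates lie furthest apart at start codons (79.8% and 56.7%), and the gap is narrower for deep peaks (93.7% and 85.1%) than for shallow ones (66.0% and 33.5%).

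Deeper start-codon peaks recurred more often. With up to 14 reads at the summit, 66.0% of replicate 1 and 33.5% of replicate 2 overlapped the other list. With 15 to 36 reads the shares were 84.0% and 57.4%, and with 37 or more they were 93.7% and 85.1%. Replicate 2 was lower in each stratum. The start-codon peaks without overlap had a median GC content of 51.7% in replicate 1 and 70.5% in replicate 2, whereas those with overlap had 66.4% and 67.1%.

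The start codons covered in a single replicate differed in kind. Those of replicate 2 only lay in exon 1 in 81.5% of cases (79.4 to 83.5), those of replicate 1 only in 49.6% (45.2 to 54.0), and those of both in 70.7%, against 62.9% of all start codons. The median GC content of the 203 nt around the start codon was 69.0% for replicate 2 only, 57.6% for replicate 1 only, 66.7% for both and 60.1% for all, over transcripts long enough to hold the window. The 5′ UTR was shorter for replicate 2 only, with a median of 119 nt, than for replicate 1 only, with 177.5 nt, and for both, with 155 nt. The start codons added by replicate 2 thus lay mostly in exon 1 and had the highest median GC content of these groups. All peaks of replicate 2 were richer in GC, as given above, and the part of base composition in the difference between the replicates was not tested.

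The genes of start codons covered in a single replicate were searched for an exonic peak in the other replicate. These genes were chosen for lacking a start-codon peak there. The genes compared with them include the 1246 covered in both, which have an exonic peak in each list by definition. The shares are thus not like for like, and no conclusion is drawn from their difference. Of the start codons covered in replicate 2 only, 229 of 1429 had a peak of replicate 1 within 200 bp, and 76.6% of their genes had an exonic peak in replicate 1, against 81.1% of all genes with an exonic peak in replicate 2. Of those covered in replicate 1 only, 124 of 484 had a peak of replicate 2 within 200 bp, and 72.5% of their genes had an exonic peak there, against 84.4% of all genes with an exonic peak in replicate 1.

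Where a start codon was covered in both, the peaks were alike in place. The summits lay a median of 33 bp apart, and within 50 bp for 60.3% of the 1246 start codons. They were upstream of the start codon in both replicates for 62.0%. The fold enrichment was larger in replicate 2 for 69.7%, with a median ratio of 1.17. Across these start codons Spearman's rho of the fold enrichment was 0.55, which describes genes and not replicates, and the pairs share the depth of their mRNA.

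**Figure D3:**
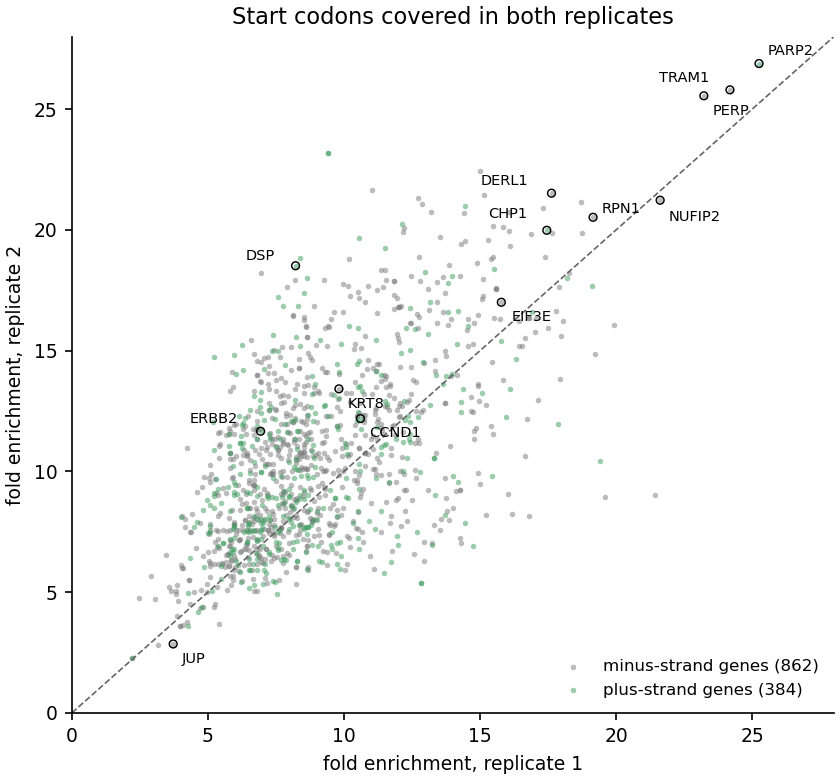
Fold enrichment of the start-codon peak in replicate 1 and replicate 2 for the 1246 start codons covered in both. Grey points are minus-strand genes (862), green points plus-strand genes (384), the dashed line marks equal values, and circles mark named genes. Most points (69.7%) lie above the line, and PARP2, TRAM1 and PERP stand at the upper end in both replicates. The PARP2 interval also holds the noncoding RNA gene RPPH1, and its summits lie outside the annotated PARP2 transcript.

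The 10 start codons with the largest fold enrichment belonged to PARP2, TRAM1, PERP, NUFIP2, RPN1, YWHAQ, CD164, DERL1, TMED10 and CHP1. A start codon was ranked by its percentile of fold in whichever replicate gave the lower one. Their folds were at least 17.5 in replicate 1 and 19.9 in replicate 2, with 41 to 153 reads at the summit in replicate 1 and 56 to 218 in replicate 2. Of the 10, 9 had the start codon in exon 1 and 9 had the larger fold in replicate 2. The summit was upstream of the start codon in both replicates in 9, and 8 lay on the minus strand. Each of these also held for most of the 1246 start codons covered in both, with the shares given above, and 862 of those lay on the minus strand. With 10 genes, none of these counts is read as a trait of the strongest peaks.

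Among the 10 were genes of membrane and ER proteins. TRAM1, which helps proteins into the translocation channel of the endoplasmic reticulum (ER), had a fold of 24.2 in replicate 1 with 82 reads and 25.8 in replicate 2 with 109 reads, with the summit 140 and 164 nt upstream of the start codon. RPN1, a subunit of the oligosaccharyltransferase that glycosylates proteins in the ER, had folds of 19.2 and 20.5 with 58 and 69 reads, in peaks at chr3:128650603-128650992 and chr3:128650586-128651011. DERL1, a membrane protein of ER-associated degradation, had folds of 17.6 and 21.5. In DERL1 the peak also overlapped TBC1D31 on the opposite strand. TMED10, a cargo receptor of vesicles between ER and Golgi, had folds of 17.6 and 19.9 with a long noncoding RNA gene on the opposite strand, and CD164, a sialomucin of the cell surface and endosomes, 18.7 and 21.1. RPN1 and TMED10 have short 5′ UTRs, with 18 and 33 nt.

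Peaks over the remaining genes of the 10 were of similar strength. PERP, a membrane protein of desmosomes that p53 induces, had folds of 23.2 and 25.6 with 93 and 138 reads and summits 76 and 79 nt upstream. NUFIP2, an RNA-binding partner of FMRP, had folds of 21.6 and 21.2 with 96 and 97 reads and was the only gene of the 10 that was higher in replicate 1. YWHAQ encodes the 14-3-3 theta protein and CHP1 a calcineurin-like calcium-binding protein. YWHAQ had folds of 18.7 and 19.9, with the start codon in exon 2 and summits 4 nt downstream and 57 nt upstream of it. CHP1 had folds of 17.45 and 19.98 and summits 74 and 178 nt upstream.

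PARP2, a poly(ADP-ribose) polymerase of DNA repair, had the largest folds, 25.3 and 26.9, with 153 and 218 reads, but the interval also holds a noncoding RNA gene. The summits lay 247 and 248 nt upstream of a start codon that has only 7 nt of 5′ UTR, and RPPH1, the RNA of RNase P, is annotated in the same interval on the opposite strand. Both summits thus lay outside the annotated PARP2 transcript, and the intervals reached only 29 and 25 nt past the start codon. The files give no strand, and which gene the reads came from was not tested. The folds are therefore not read as those of PARP2 mRNA.

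**Figure D4:**
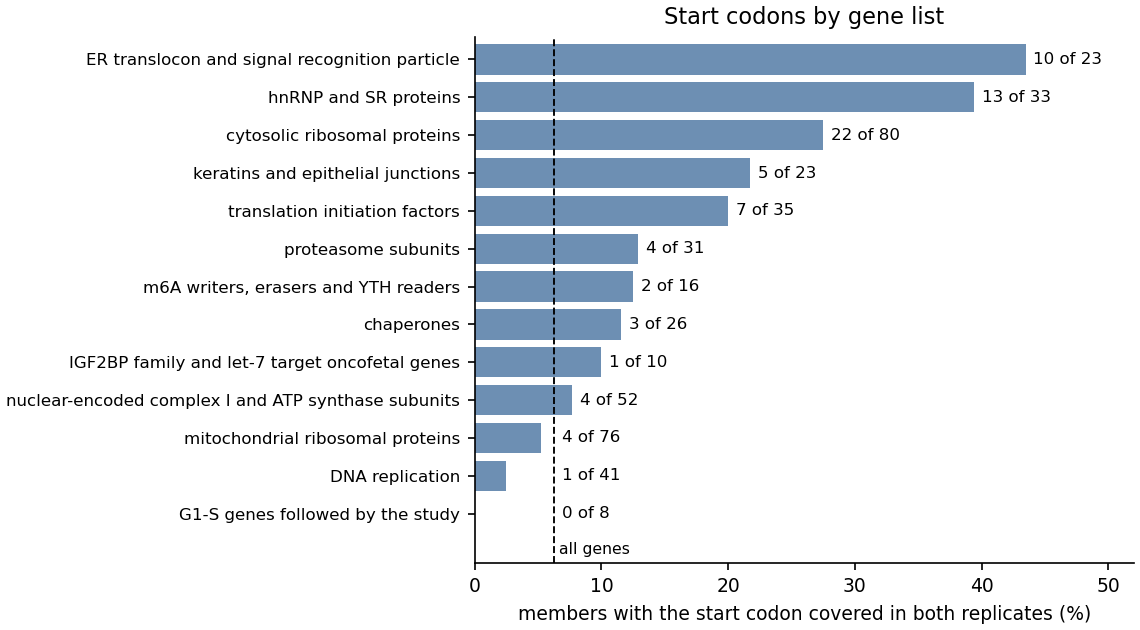
Percentage of the members of 13 gene lists whose start codon was covered in both replicates, with the counts beside the bars. The dashed line is the share over all 19856 canonical start codons (6.28%). The ER translocon list (10 of 23), the hnRNP and SR proteins (13 of 33) and the cytosolic ribosomal proteins (22 of 80) lie furthest above it.

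Gene lists of the secretory and translation machinery were read against that background. Of the genes of the ER translocon and signal recognition particle, 10 of 23 had the start codon covered in both replicates (43.5%, against 6.28% of all genes). Of those with an exonic peak in both, 10 of 15 did (66.7%, against 20.7%). Beside TRAM1 they were SSR1, SSR2 and SSR3 of the translocon-associated complex, SEC63, the signal peptidase subunits SEC11A, SPCS2 and SPCS3, the signal recognition particle protein SRP14 and the receptor subunit SRPRB. SSR3 had folds of 12.7 and 16.5 with 31 and 33 reads, and SSR1 12.01 and 15.4 with 30 and 41 reads. The channel subunits SEC61A1, SEC61B and SEC61G were not covered in either. In each list, the genes with exonic peaks in both include every gene covered in both, since the start-codon peak itself counts. That group is thus not chosen independently of the start-codon peaks. These counts describe the lists and were not tested. No mRNA level was measured here, so more binding per mRNA and more mRNA cannot be told apart in any of them.

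Among hnRNP and SR proteins, which bind pre-mRNA and direct its splicing, 13 of 33 start codons were covered in both (39.4%, against 6.28%). Of those with exonic peaks in both it was 13 of 25 (52%, against 20.7%). SRSF9 had folds of 14.9 and 16.5, although the peak also overlapped DYNLL1 on the opposite strand. TRA2B had 11.4 and 11.8 and HNRNPD, which binds AU-rich elements, 11.1 and 12.4 with 77 and 67 reads. The interval of HNRNPD overlapped the divergent transcript HNRNPD-DT. HNRNPU was among the deeper ones, with 93 and 92 reads.

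Of the cytosolic ribosomal proteins, 22 of 80 were covered in both (27.5%, against 6.28%), and 22 of 59 with exonic peaks in both (37.3%, against 20.7%). RPL32 had folds of 12.1 and 16.9 with 89 and 122 reads and summits 197 and 200 nt upstream. Its start codon is in exon 2 with 77 nt of 5′ UTR, so both summits lay upstream of that exon. The interval also holds the small nucleolar RNA SNORA7A and, on the opposite strand, an unnamed protein-coding gene. RPLP1, of the ribosomal stalk, had 11.5 and 19.3, with summits 181 and 169 nt upstream, beyond its 131 nt of 5′ UTR. RPS29 had 11.4 and 17.6, in a wide interval that overlaps RN7SL1, the RNA of the signal recognition particle, on the opposite strand. Its summits lay 223 nt downstream of the start codon in replicate 1 and 250 nt upstream in replicate 2, where the summit 31-mer occurs 5 times in the genome. RPS29 has 34 nt of 5′ UTR and its first exon ends 61 nt from the start codon, so both summits lay outside that exon. The summit 31-mers of RPL32 and RPLP1 occur 1 time in the genome in both replicates. Ribosomal protein genes have many processed copies. Whether reads of these peaks were shared with pseudogenes was not tested, and the mapped place is uncertain to that extent.

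Mitochondrial ribosomal proteins were close to the background, with 4 of 76 covered in both (5.26%), and below it among those with exonic peaks in both, at 4 of 27 (14.8%, against 20.7%). MRPS30 had folds of 10.5 and 13.5, with summits 226 and 224 nt downstream of the start codon in a long first exon. MRPS21 had 11.2 and 9.72 and MRPL50 9.91 and 8.21, the latter over ZNF189 on the opposite strand. Nuclear-encoded complex I and ATP synthase subunits had 4 of 52 (7.69%, against 6.28%), and 4 of 14 with exonic peaks in both (28.6%, against 20.7%). NDUFC2, whose start codon is also that of the readthrough gene NDUFC2-KCTD14, had folds of 16.8 and 16.3, NDUFB4 8.81 and 13.97, and NDUFC1 7.39 and 10.0.

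Translation initiation factors were covered in both in 7 of 35 cases (20%, against 6.28% of all genes). Of those with exonic peaks in both it was 7 of 25 (28%, against 20.7%). EIF3E and EIF3H, subunits of the eIF3 complex that binds the small ribosomal subunit, had folds of 15.8 and 17.0, and of 14.5 and 19.5. EIF2S2, the beta subunit of eIF2 that delivers the initiator tRNA, had 15.3 and 19.6. In EIF2S2 the start codon is 14 nt from the end of exon 1. The summits lay 185 and 191 nt upstream of the start codon, beyond its 133 nt of 5′ UTR.

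The remaining housekeeping lists had small counts, to be read against 6.28% of all genes and 20.7% of those with exonic peaks in both. The proteasome had 4 of 31 covered in both (12.9%), or 4 of 13 with exonic peaks in both (30.8%, against 20.7%), with PSMD12 of the lid at folds of 9.38 and 10.6, PSMB5 of the catalytic core at 7.69 and 9.07, and PSMA7 at 6.42 and 7.53. Chaperones had 3 of 26 (11.5%), or 3 of 20 with exonic peaks in both (15%), with the chaperonin subunits TCP1 at 8.76 and 8.08 and CCT3 at 7.27 and 11.6, and HSPA5, the ER chaperone BiP, at 7.77 and 7.31. HSPA5 had 84 and 135 reads, so a low fold there went with a deep peak. The peaks of TCP1 and CCT3 overlapped MRPL18 and TSACC on the opposite strand. DNA replication had only PCNA, the sliding clamp, among 41 (2.44%), or 1 of 11 with exonic peaks in both (9.09%), with folds of 11.1 and 14.3.

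Keratins and epithelial junctions had 5 of 23 covered in both (21.7%, against 6.28% of all genes). Of those with exonic peaks in both it was 5 of 21 (23.8%), near the 20.7% of all such genes. KRT8 had folds of 9.81 and 13.4 with 106 and 156 reads, its summit 31-mer occurring 2 times in the genome. KRT19 had 6.16 and 7.56 with 82 and 138 reads. DSP, desmoplakin of the desmosome, had 8.22 and 18.5 with 13 and 48 reads, over the antisense gene DSP-AS1. ERBB2, which is on none of the lists and was picked as a marker, had 6.94 and 11.7 with 86 and 131 reads. All 4 had the larger fold in replicate 2. JUP, plakoglobin, and the claudin CLDN7 were also covered in both, at lower folds of 3.72 and 2.85 and of 3.99 and 3.59. A further 6 of the list were covered in replicate 2 only, EPCAM, DSC2, PKP2, DSG2, CTNND1 and KRT18, with folds of 18.5, 16.9, 16.6, 10.6, 7.10 and 6.02. CLDN4 was covered in replicate 1 only, with a fold of 5.24.

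The lists around IGF2BP3 itself held few covered start codons in number. Their shares were not below the 6.28% of all, but were below the 20.7% among genes with exonic peaks in both. With counts this small no direction is read. Of 10 genes of the IGF2BP family and let-7 target oncofetal genes with an annotated start codon, only IGF2BP2 was covered in both (10.0%), with folds of 7.17 and 10.3 and 11 and 19 reads. Of the 5 with exonic peaks in both it was 1 (20%, against 20.7%). IGF2BP3 and IGF2BP1 were not covered. Of 16 m6A writers, erasers and YTH readers, the demethylase ALKBH5 and the methyltransferase METTL3 were covered in both (12.5%), or 2 of 12 with exonic peaks in both (16.7%, against 20.7%). ALKBH5 had folds of 9.54 and 7.48, with a long noncoding RNA gene on the opposite strand. METTL3 had 6.81 and 5.06 with 9 and 6 reads, the fewest in replicate 2 of the genes named.

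The study followed 8 genes of the G1-S transition, CDC25A, CCNE2, CDC6, CDK4, CHEK2, E2F1, E2F3 and WEE1. None had its start codon covered in both replicates (0%, against 6.28% of all genes). Only 2 of the 8 had an exonic peak in both, and neither was covered in both (0%, against 20.7%). Counts this small do not set these genes apart from the background. The start codon of CDK4, a cyclin D-dependent kinase, was covered in replicate 1 only, with a fold of 5.50, 24 reads and the summit 2 nt upstream. That of CHEK2, a checkpoint kinase, was also covered in replicate 1 only, with a fold of 6.19 and 9 reads. Both were below the median fold of start-codon peaks in that list, 8.04. The start codon of CDC25A, the phosphatase that activates cyclin-dependent kinases, was covered in neither, although the gene had 1 exonic peak in each replicate. In all, 6 of the 8 had an exonic peak in replicate 1 and 2 of the 8 in replicate 2.

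CCND1, which encodes cyclin D1, was covered in both, with folds of 10.6 and 12.2, 59 and 85 reads, and summits 91 and 90 nt upstream. MYC was covered in neither, with 3 exonic peaks in each replicate. Its canonical transcript is annotated with a CTG start codon, so the AUG downstream of it was not the codon asked for here.

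Start codons that do not read ATG made up 38 of the 19856. Of these, 5 were covered in both replicates (13.2%, 5.75 to 27.3) and 5 in replicate 2 only. The interval includes the 6.28% of all start codons. VEGFA, which encodes vascular endothelial growth factor A, had folds of 8.67 and 9.03 over its CTG codon, in intervals of 1131 and 1304 bp that also hold a long noncoding RNA gene on the opposite strand. DDX17, an RNA helicase, had 9.38 and 14.1, with summits 79 nt downstream and 6 nt upstream of its CTG. The summits over GTF3A, transcription factor IIIA, lay 76 and 55 nt upstream, and those over MRTFA, a coactivator of serum response factor, 24 and 27 nt downstream of its GTG. WDR26, part of a ubiquitin ligase, had 8.48 and 12.1 in intervals of 1034 and 1095 bp around its ACG that overlap CNIH3 on the opposite strand. Intervals of this size do not place a peak on the codon.

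Start codons were covered more often on the minus strand. On the plus strand 576 of 10073 start codons were covered in replicate 1 (5.72%, 5.28 to 6.19) and 956 in replicate 2 (9.49%, 8.93 to 10.1). On the minus strand 1154 of 9783 were covered in replicate 1 (11.8%, 11.2 to 12.5) and 1719 in replicate 2 (17.6%, 16.8 to 18.3). The ratio of minus to plus was 2.06 and 1.85. In both replicates together 384 plus-strand (3.81%) and 862 minus-strand start codons (8.81%) were covered, a ratio of 2.31. The share was larger on the minus strand on each of the 23 chromosomes with at least 50 start codons per strand, in each replicate.

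The difference was not particular to start codons. Stop codons on the plus strand were covered in 7.49% and 7.40% of cases and on the minus strand in 20.3% and 17.9%, a ratio of 2.71 and 2.41. An exonic peak was found in 28.03% and 30.4% of plus-strand genes and in 44.1% and 44.7% of minus-strand genes. Start-codon peaks of plus-strand genes were also shallower, with a median of 15 and 17 reads against 22 and 23 for minus-strand genes, and overlapped the other list less often, in 75.5% and 50.1% against 82.0% and 60.4%. The cause was not tested. The strand difference also enters the lists above. Of all 1246 start codons covered in both, 862 were on the minus strand. In the ER list 7 of 10 were, in the hnRNP and SR list 10 of 13 and in the ribosomal list 15 of 22, near that share. These lists have 10 of 23, 21 of 33 and 35 of 80 of their genes on that strand. The mitochondrial ribosomal list had 1 of its 4 there, where 38 of its 76 genes lie, a count too small to read.

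**Figure D5:**
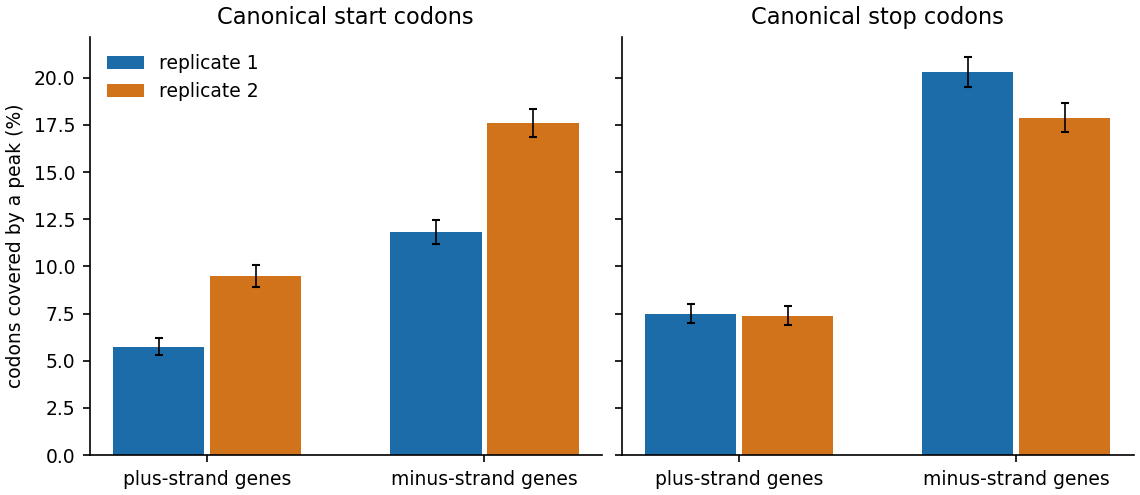
Percentage of canonical start codons (left) and stop codons (right) covered by a peak, for plus-strand and minus-strand genes. Blue is replicate 1, orange replicate 2, and lines are Wilson 95% intervals. Codons of minus-strand genes were covered 2.06 and 1.85 times as often at start codons and 2.71 and 2.41 times as often at stop codons.

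Covered start codons lay further from the 3′ end of their exon. The distance from the start codon to the end of its exon had a median of 180 nt for those covered in both, 122 nt for all start codons, and 90 nt for uncovered start codons of the 3336 genes that had exonic peaks in both replicates. Their quartiles were 107 and 345 nt for start codons covered in both and 44 and 164 nt for the uncovered ones. In the same uncovered group the start codon lay in exon 1 in 56.8% of cases, against 70.7% for those covered in both, and the 5′ UTR had a similar median of 151 nt. A peak and the exon it lies on share their extent, so this describes where peaks were found.

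The start codon context was close to that of all start codons. A purine at position -3, the third base before the capitals printed above, was present in 88.3% of start codons covered in both (86.4 to 90.0) and in 86.0% of all. A G at position 4, the first base after the capitals, was present in 53.7% (50.9 to 56.4) and 51.5%. Of the ATG contexts printed above, only that of NUFIP2 lacks the purine.

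Motifs were counted on the transcript strand in windows of 203 nt, 100 nt to each side of the start codon, for transcripts long enough to hold the window. GGAC, the core that m6A sites often carry, was present in 541 of 828 windows of start codons covered in both (65.3%, 62.0 to 68.5) and in 7847 of 11996 windows of all start codons (65.4%). The longer TGGAC, which contains it, was present in 22.8% and 24.6%. The reverse complement of GGAC was found in 62.1% and 56.5%. Windows at covered start codons thus held GGAC about as often as all windows. A match is a description of the letters and says nothing of methylation.

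ACACA, of the CA-rich kind bound by the IGF2BP family, was present in 9.30% (7.505 to 11.5) of windows covered in both, in 10.9% of the windows of uncovered start codons of genes with exonic peaks in both, and in 11.5% of all. With 50 nt to each side it was present in 4.91%, 4.44% and 5.595%, so no direction is given. AAAAA was present in 8.57% (6.85 to 10.7), 17.7% and 16.1%, and with 50 nt to each side in 4.44%, 9.23% and 8.55%. The reverse complement of AAAAA was found in 8.57% and 12.5%. The windows covered in both had a median GC content of 66.7% against 60.1%, and the part of composition in these differences was not tested.

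A hydrophobic stretch near the N terminus, as signal peptides and membrane proteins have, was looked for after the genes with the largest folds had been seen. It was defined as 15 residues with a mean Kyte-Doolittle hydropathy of at least 1.6 in the first 40 codons. It was encoded at 18.8% of start codons covered in both (16.7 to 21.0), 24.4% of all and 15.1% of the uncovered start codons of genes with exonic peaks in both.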

How the data were processed

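LACE-seq of IGF2BP3 in OE-19 cells was deposited as 1 peak list for each of 2 replicates, called separately. The study's methods name Bowtie and Piranha, whereas the submitters' processing notes name fastp, HISAT2 and MACS2, and the files have the layout that MACS2 writes. Alignment, duplicates and multiply mapped reads decide where peaks near start codons appear, and these steps could not be checked. The authors deposited for each peak an interval and summit, a fold enrichment (a ratio over local background) and the −log10 of a p-value and a q-value. A score column was not used.

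Peaks were set on GENCODE 44 canonical transcripts of hg38 (1-based) in Python 3.11.15 with pandas 2.3.3, NumPy 2.4.6 and SciPy 1.17.1. Of 20046 canonical transcripts, 19856 had an annotated start codon. Peaks with the start and stop codon of the same gene (36 and 42) were left out. The whole-number pileup at each summit that gives the deposited fold and p-value under a Poisson test was found for all 21142 and 20799 peaks. The functions were tested on planted peaks with known answers.

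Stop-codon peaks (2646 and 2403) held a canonical stop codon and no start codon of that gene, and internal coding peaks (8742 and 8206) touched coding sequence and neither codon. Overlap shares and the share of start-codon peaks were compared by Fisher's exact test, two-sided, adjusted over 5 tests by the Benjamini-Hochberg method, and an overlap difference was called only where both replicates had an adjusted p below 0.05 and the same sign.

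The named genes were the 8 G1-S genes of the study, MYC and CCND1, the 10 start codons covered in both replicates with the largest fold (the lower of their percentiles in each list, 1 peak per gene), and up to 3 such genes for each of 13 gene lists. Others named were chosen after their values were seen. The members and lists were chosen with earlier results of these data known. Alternatives changed the transcripts, the cover of the codon, the position of the interval, the peak threshold, the copies of the summit sequence, the overlap rule, the strata, the windows and the replicates used. Restriction to 1 strand was added after the data were seen.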

Additional observations from a re-analysis of the deposited data

How the results depend on the processing

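Of 98 alternatives over 9 results, 88 kept the value within the SD of the replicates, the count within 1.5 times, or the call, and 10 did not. For the overlap share that SD was 16.4 percentage points, so only a large change counted as moved. Moving intervals and summits downstream by 146 or 147 nt lowered the mean share of summits upstream of the start codon from 70.3% to 38.1%. Keeping the 5000 peaks of each list with the largest −log10 q left a mean of 674 start-codon peaks and 343 start codons covered in both, with a median fold of 12.3. Counting only summits within 50 bp as shared lowered the mean overlap from 68.3% to 40.2%. The mean share of start-codon windows with GGAC, 66.8%, was 43.4% with 50 nt to each side, where all start codons had 41.7%, and 69.6% in the exonic part of the peak. Plus-strand genes alone gave a mean of 748.5 peaks and 384 start codons covered in both, and minus-strand genes a mean of 1401 peaks. The cause of these changes was not tested. The settings also differ in which peaks, genes, overlaps or windows they count.

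Without replicate 1 or without replicate 2, the number of peaks ranged from 1677 to 2599, the overlap from 56.7% to 79.8%, the share of upstream summits from 68.1% to 72.5%, the median fold from 8.04 to 8.60 and the GGAC share from 64.8% to 68.7%. For the shares and the fold these settings could not leave the SD of the replicates, as it was set by the same replicates. The overlap differences from stop-codon and internal coding peaks stayed uncalled under every alternative run for them, with opposite signs in the replicates except for plus-strand genes against internal coding peaks, where replicate 2 differed by 0.309 percentage points (Fisher's exact test, adjusted p = 0.879). No paired analysis was possible because the samples form 1 group. With no control library and unknown read totals, shallow peaks limit what can be said of start codons that were not covered.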
